A study of Mus musculus with 24 samples.

Results

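Collagen genes were taken as every symbol of the RNAseq tables that reads Col, a number, the letter a and a number, which gave 44 of 21909 symbols. Collagens are secreted or membrane proteins in which 3 alpha chains, each made of repeats that begin with glycine, wind into a triple helix. Fibrillar collagens assemble into the fibrils of connective tissue, type IV collagens form the network of basement membranes, type VI collagens form beaded filaments, and the other classes decorate fibrils, anchor epithelia or span the cell membrane. In the embryo, basement membrane collagens surround epithelia, including the neuroepithelium, while fibrillar collagens are best known from mesenchyme.

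Expression was measured by RNAseq of poly(A) RNA in 3 ESC and 3 NPC samples, each from a culture dish of its own. ESCs were mouse E14 cells kept in 2i medium with LIF (1000 U/ml), the GSK3β inhibitor CHIR99021 (3 µM) and the MEK inhibitor PD0325901 (1 µM), without feeder cells. NPCs were derived in culture from E14 ESCs as floating embryoid bodies over 8 days in medium with fetal calf serum, with 2 µM retinoic acid in the last 4 days. A further readout, Nucleolar-DamID, gave a list of nucleolar associated domains (NADs) per cell type. Its fusion proteins were induced by Shield1 (1 µM) together with doxycycline (100 ng/ml) over 15 h. Values are listed below in the order of replicates 1, 2 and 3, first for ESCs and then for NPCs.

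The deposited RPKM values came out as whole reads when multiplied by the length of the gene from its first to its last base, introns included. Of the values above 0, between 93.1% and 93.2% per sample were within 0.02 of a whole read, and so were those of the 44 collagen genes. This gave 34051991, 33732017 and 30779728 reads in genes for ESCs and 30151251, 27262786 and 32297554 for NPCs. RPKM here is thus a level per kilobase of gene, and it is low for genes with long introns. Collagen genes had a median length of 114 kb, against 17.4 kb for all genes with a position, and a median mRNA length of 5.99 kb, against 2.69 kb. RPKM times gene length in kilobases, which is reads relative to the depth of the library (RPM), and RPM per kilobase of mRNA, were therefore used beside RPKM, a choice made after seeing the data.

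ESC replicate 3 stood apart from the other libraries. The chi-square of its reads per degree of freedom was 321 against ESC replicate 1 and 298 against ESC replicate 2, whereas it was 6.22 between those and from 3.17 to 9.06 between NPC samples. Its level relative to the other ESC samples fell with mRNA length, from a median log2 ratio of 0.85 for 508 genes with mRNAs under 1 kb to -0.67 for 3661 genes of 4 to 8 kb and -1.16 for 754 longer ones. Among the 37 collagen genes with a mean of at least 1 RPM, the median was -0.37. By RPM, 24 of the 44 collagen genes were lowest of the ESC samples in this library and 7 were highest. The counts over all collagen genes and over the genes around collagen are therefore also given without it.

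The labels were checked with marker genes. All 8 ESC markers were called lower in NPCs, with summed levels of 423, 425 and 482 RPKM in ESCs and 2.27, 2.14 and 2.27 in NPCs. All 8 neural progenitor markers were called higher, with sums of 4.71, 4.05 and 4.00 RPKM in ESCs and 44.0, 50.1 and 49.1 in NPCs, led by Nes at 30.6 RPKM. Pax6 was at 1.55, 1.42 and 1.67 RPKM in NPCs. NPC samples thus carried the markers of their label, but not these alone. The 12 mesenchyme and fibroblast markers summed to 63.8, 78.1 and 74.9 RPKM in NPCs. Markers of this and other lineages are described further below.

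In NPCs, reads from collagen genes were a far larger share of the library than in ESCs. They made up 0.0206%, 0.0213% and 0.0142% of all reads in genes in ESCs and 0.380%, 0.401% and 0.394% in NPCs. Means were 0.0187% ± 0.00393 (SD, n = 3) and 0.392% ± 0.0106 (SD, n = 3). Summed RPKM of the 44 genes was 2.57, 2.68 and 1.88 in ESCs and 74.7, 82.3 and 81.7 in NPCs. Every NPC sample lay above every ESC sample on both measures, and the lowest ESC value belonged to replicate 3. In bulk samples, more cells that transcribe a gene and more RNA per cell cannot be told apart.

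Only 11 of the 44 collagen genes reached the filter of 1 RPKM in 3 samples, and all 11 were called higher in NPCs by limma on log2(RPKM + 1), with 0 called lower. Over the 7831 genes tested, 37.0% were called higher and 33.3% lower. None of the 11 had 1 RPKM in all 3 ESC samples, so each passed the filter through NPCs, and their count alone says little. The 33 others include Col26a1, whose 2046, 2365 and 2801 reads in NPCs are spread over a long gene body. Whole reads in RPM bring all 44 into 1 fit, with 0.1 added before the logarithm and 16777 genes tested. There, 41 of 44 collagen genes were called higher and 0 lower, where 41.7% of all genes were called higher and 23.9% lower. No collagen gene had a negative estimate in this fit, so 0 were lower at an unadjusted p under 0.05. However, 18 of the 44 had under 10 reads in every ESC sample, which left little room for a call of lower. Without ESC replicate 3, 40 of 44 were called higher and 0 lower, and Col6a4 was the gene lost (adjusted p = 0.0562, from 0.0261 with all samples). Over all 16777 genes, that fit called 7685 higher and 5188 lower.

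The median log2 fold change of the 44 genes on whole reads was 4.60, against 0.29 over all genes tested. With the 3 genes that had no ESC read set at their lower bound, the median log2 ratio of mean RPM was 5.01. All 3 NPC samples lay above all 3 ESC samples for 41 of 44 genes, and for 45.8% of all genes. On RPKM the split of calls depended on scaling, with 52.6% of called genes higher as deposited, 69.4% with every sample set to the same sum (median shift 0.33) and 62.1% with median-of-ratios scaling (median shift 0.18). The 11 collagen genes were called higher under both scalings, which their entry through NPCs made likely. ESC and NPC libraries carry no label of a sequencing run, so a run and the cell type cannot be told apart.

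**Figure D1:**
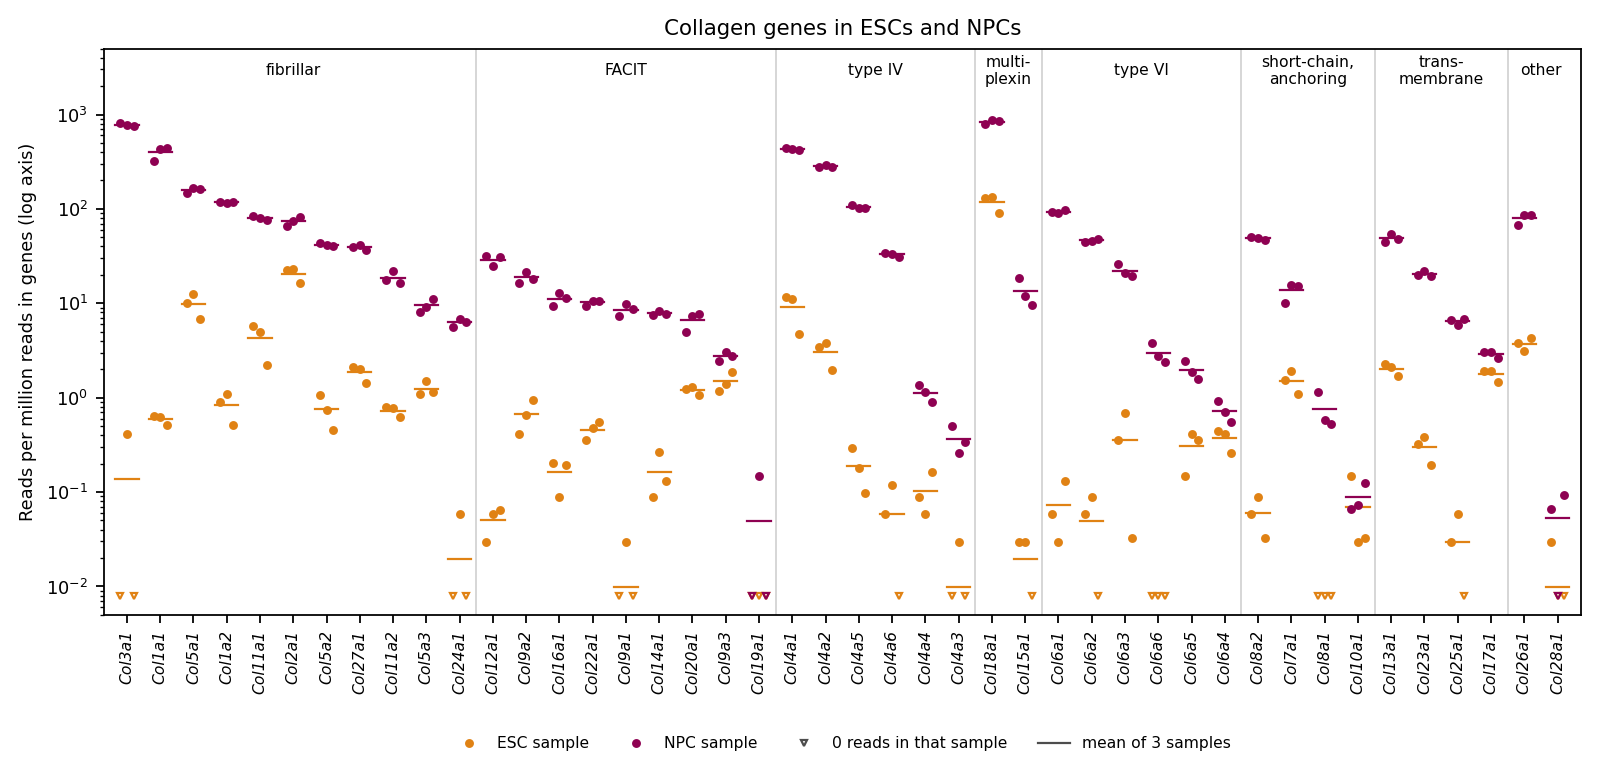
RPM (log axis) of the 44 collagen genes by class; each point is 1 of 3 ESC or 3 NPC samples, bars are means and open triangles are samples with 0 reads. NPC points lie above all ESC points for 41 genes, and only Col19a1, Col10a1 and Col28a1 overlap.

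Fibrillar collagens gave the largest class share of collagen reads in NPCs, 44.0% ± 0.318 (SD, n = 3), compared with 21.7% ± 0.525 (SD, n = 3) in ESCs. All 11 fibrillar genes were called higher on whole reads. Col3a1 encodes the chain of type III collagen, which accompanies type I in soft connective tissue. It lies at chr1:45311538-45349706 of GRCm38 on the plus strand. Its reads numbered 0, 14 and 0 in ESCs and 24386, 20987 and 24305 in NPCs. The ESC reads thus came from replicate 2 alone, and the NPC samples were close to each other. In RPKM the levels were 0, 0.0109 and 0 against 21.2, 20.2 and 19.7, and limma gave a log2 fold change of 4.41 ± 0.07 (SE) with an adjusted p of 1.76e-07. On whole reads the log2 fold change was 12.14 ± 0.61 (SE), the largest of the 44 genes. Its size depends on the 0.1 added before the logarithm, since 2 of the 3 ESC samples had 0 reads.

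Col1a1 and Col1a2 encode the chains of type I collagen, the main fibre protein of bone, skin and tendon. Col1a1 was at 0.0384, 0.0370 and 0.0309 RPKM in ESCs and at 19.1, 25.9 and 26.0 in NPCs. NPC replicate 1 was the lowest of its group, and no NPC sample came near an ESC sample. On whole reads the mean rose 668-fold, from 0.596 ± 0.0671 to 398 ± 66.2 RPM (SD, n = 3 each, limma adjusted p = 1.41e-07). For Col1a2, RPKM was 0.0248, 0.0299 and 0.0142 in ESCs and 3.19, 3.11 and 3.26 in NPCs. This is a rise of 139-fold in mean RPM (adjusted p = 5.87e-07), with NPC samples closer together than for Col1a1. Per kilobase of mRNA, Col1a1 stood above Col1a2 in NPCs by ratios of 2.48, 3.44 and 3.30.

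Col2a1, the chain of type II collagen of cartilage and notochord, was already read in ESCs. Its RPKM was 0.767, 0.789 and 0.562 in ESCs and 2.26, 2.59 and 2.81 in NPCs. The groups did not overlap, but the gap was small beside that of type I and type III chains, 3.62-fold in mean RPM (adjusted p = 6.46e-05). Its share of all collagen reads went from 11.0% ± 0.420 in ESCs to 1.89% ± 0.177 in NPCs (SD, n = 3 each), since other genes rose more.

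Type V and type XI chains join type I and type II fibrils and help to set their diameter. Col5a1 was at 0.0650, 0.0813 and 0.0448 RPKM in ESCs and 0.965, 1.09 and 1.07 in NPCs, so NPC replicate 1 kept it just below the filter. In reads it was among the most abundant fibrillar genes of NPCs, with 4454, 4562 and 5307 against 339, 420 and 211 in ESCs, a rise of 16.4-fold (adjusted p = 3.93e-06). Its partner chain Col5a2 had 36, 25 and 14 reads in ESCs and 1304, 1134 and 1322 in NPCs. Col11a1 had 194, 166 and 69 reads in ESCs and 2564, 2203 and 2469 in NPCs. For both, the smallest ESC number was in replicate 3 and the groups were far apart. Of the fibrillar genes, Col24a1 had the fewest NPC reads, 169, 188 and 205, against 0, 2 and 0 in ESCs, a ratio of 309 with a 95% counting interval from 85.1 to 2556.

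Type IV collagens make the sheet of basement membranes, and their 6 genes lie in 3 pairs that start next to each other on opposite strands. The type IV share of collagen reads was 6.55% ± 1.42 in ESCs and 21.9% ± 0.931 in NPCs (SD, n = 3 each), and all 6 genes were called higher on whole reads. Col4a1 (chr8:11198423-11312826, minus strand) and Col4a2 (chr8:11312805-11449287, plus strand) form the trimer found in nearly every basement membrane. Col4a1 was at 0.102, 0.0974 and 0.0417 RPKM in ESCs and 3.88, 3.78 and 3.64 in NPCs. Col4a2 was at 0.0250, 0.0278 and 0.0143 RPKM in ESCs and 2.05, 2.15 and 2.06 in NPCs. Both were lowest in ESC replicate 3 and tight among NPC samples, and mean RPM rose 46.9-fold and 93.3-fold (adjusted p = 6.04e-06 and 7.11e-07). Within NPCs the ratio of Col4a1 to Col4a2 per kilobase of mRNA was 1.55, 1.44 and 1.45.

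The other type IV pairs differed in level. Col4a5 had 10, 6 and 3 reads in ESCs and 3355, 2817 and 3299 in NPCs, and its neighbour Col4a6 had 2, 4 and 0 against 1025, 918 and 1011. Chains of this pair are found in the basement membranes of kidney, lens and smooth muscle. Mean RPM rose 557-fold and 558-fold (adjusted p = 3.42e-07 and 7.64e-07), from so few ESC reads that these multiples are rough. Col4a3 and Col4a4, whose chains belong to the mature glomerular membrane, stayed low. Col4a4 had 3, 2 and 5 reads in ESCs and 41, 31 and 29 in NPCs, and Col4a3 had 0, 1 and 0 against 15, 7 and 11, a ratio of 36.3 with a 95% counting interval from 6.07 to 1475.

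Col18a1 was the most abundant collagen gene of ESCs. It encodes a multiplexin, a basement membrane collagen with heparan sulfate chains whose end can be cut off as endostatin. Its RPKM was 1.14, 1.18 and 0.789 in ESCs and 6.88, 7.63 and 7.50 in NPCs. No NPC sample overlapped an ESC sample, and limma gave a log2 fold change of 2.04 ± 0.10 (SE, adjusted p = 4.64e-06). Mean RPM rose 7.07-fold, from 119 ± 24.7 to 839 ± 45.8 (SD, n = 3 each). Its share of collagen reads was 63.6%, 63.2% and 63.7% in ESCs and 20.7%, 21.8% and 21.8% in NPCs, so it led in ESCs and shared the lead with Col3a1 in NPCs. The other multiplexin, Col15a1, had 1, 1 and 0 reads in ESCs and 563, 328 and 313 in NPCs.

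Type VI collagens surround cells with beaded filaments. Col6a1 had 2, 1 and 4 reads in ESCs and 2787, 2483 and 3110 in NPCs, and its level there was 5.32, 5.24 and 5.54 RPKM against 0.00338, 0.00171 and 0.00748. Col6a2, which lies 85.2 kb away on the same strand of chromosome 10, had 2, 3 and 0 reads in ESCs and 1359, 1250 and 1562 in NPCs, or 1.62, 1.65 and 1.74 RPKM against 0.00211, 0.00319 and 0. Both were close to absent from ESC libraries and even among NPC samples. On log2(RPKM + 1) the fold changes were 2.66 ± 0.05 and 1.41 ± 0.03 (SE, limma adjusted p = 1.86e-07 and 2.11e-07). Col6a3, the third chain of the classical trimer, had 12, 23 and 1 reads in ESCs and 791, 566 and 628 in NPCs. The chains Col6a4, Col6a5 and Col6a6, which lie in a row on chromosome 9, were much lower. Col6a6 had 0 reads in every ESC sample and 115, 75 and 78 in NPCs, at least 98.1-fold higher with 3 reads over the group as floor. Col6a4 was the weakest of the class, with 15, 14 and 8 reads in ESCs and 28, 19 and 18 in NPCs.

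Of the FACIT collagens, which sit on the surface of fibrils, 8 of 9 were called higher on whole reads. Col9a2 was the only one to pass the RPKM filter, with 0.0258, 0.0409 and 0.0591 RPKM in ESCs and 1.04, 1.36 and 1.15 in NPCs (log2 fold change 1.06 ± 0.06 SE, adjusted p = 5.93e-06). Its trimer partner Col9a1 had 0, 1 and 0 reads in ESCs and 221, 267 and 279 in NPCs, and the third partner, Col9a3, had 40, 47 and 58 against 74, 83 and 89. The chains of type IX collagen thus differed widely in how far they rose, with Col9a3 at 1.85-fold. Col12a1, a collagen of dense connective tissue, had 1, 2 and 2 reads in ESCs and 945, 677 and 992 in NPCs, the most of the class. Col19a1 had 0 reads in all samples but NPC replicate 2, which had 4 (adjusted p = 0.321).

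Among short-chain and anchoring collagens, Col8a2 stood out. It encodes a chain of the hexagonal lattice of type VIII collagen. Its RPKM was 0.00213, 0.00323 and 0.00118 in ESCs and 1.84, 1.77 and 1.70 in NPCs, from 2, 3 and 1 reads against 1524, 1329 and 1514. NPC samples were even and ESC samples close to 0 (log2 fold change on RPKM 1.47 ± 0.03 SE, adjusted p = 2.11e-07). Its partner Col8a1 had 0 reads in ESCs and 35, 16 and 17 in NPCs, at least 24.9-fold higher against the same floor. Col7a1, which forms anchoring fibrils under epithelia, had 52, 65 and 34 reads in ESCs and 306, 430 and 489 in NPCs. Col10a1, known from hypertrophic cartilage, had 5, 1 and 1 reads in ESCs and 2, 2 and 4 in NPCs, so its groups overlapped (adjusted p = 0.553).

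All 4 transmembrane collagens were called higher on whole reads. Col13a1 was the highest of them in NPCs, with 78, 71 and 52 reads in ESCs and 1361, 1483 and 1543 in NPCs. Col17a1, a hemidesmosome protein of epithelia, was the least changed gene among those called, with 65, 65 and 45 reads against 91, 83 and 84 (log2 fold change 0.69 ± 0.18 SE, adjusted p = 0.0135). Col26a1, outside the main classes, had 129, 106 and 132 reads in ESCs and 2046, 2365 and 2801 in NPCs, a rise of 21.5-fold. It missed the RPKM filter because its 141 kb gene carries an mRNA of 2.78 kb. Col28a1 had few reads, 1, 0 and 0 in ESCs and 2, 0 and 3 in NPCs, and was not called (adjusted p = 0.198).

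The order of levels among collagen genes depended on the length used. Per kilobase of gene, Col1a1 led NPCs with 23.7 ± 3.94 RPKM, followed by Col3a1 with 20.4 ± 0.755 and Col18a1 with 7.34 ± 0.401 (SD, n = 3 each), although Col3a1 was above Col1a1 in NPC replicate 1. Per kilobase of mRNA, Col18a1 came first with 150.0 ± 8.19 RPM, then Col3a1 with 140 ± 5.18, Col1a1 with 67.2 ± 11.2, Col4a1 with 65.1 ± 2.09 and Col4a2 with 44.1 ± 1.14 (SD, n = 3 each). Col18a1 and Col3a1 were within their spread, since Col3a1 was higher in NPC replicate 1 (145 against 141) and Col18a1 in the others. Col1a1 and Col4a1 overlapped as well. Col26a1 moved from rank 14 per kilobase of gene to rank 6 per kilobase of mRNA. In ESCs, Col18a1 with 21.2 ± 4.41 and Col2a1 with 4.02 ± 0.714 RPM per kilobase of mRNA (SD, n = 3 each) led on both scales.

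**Figure D2:**
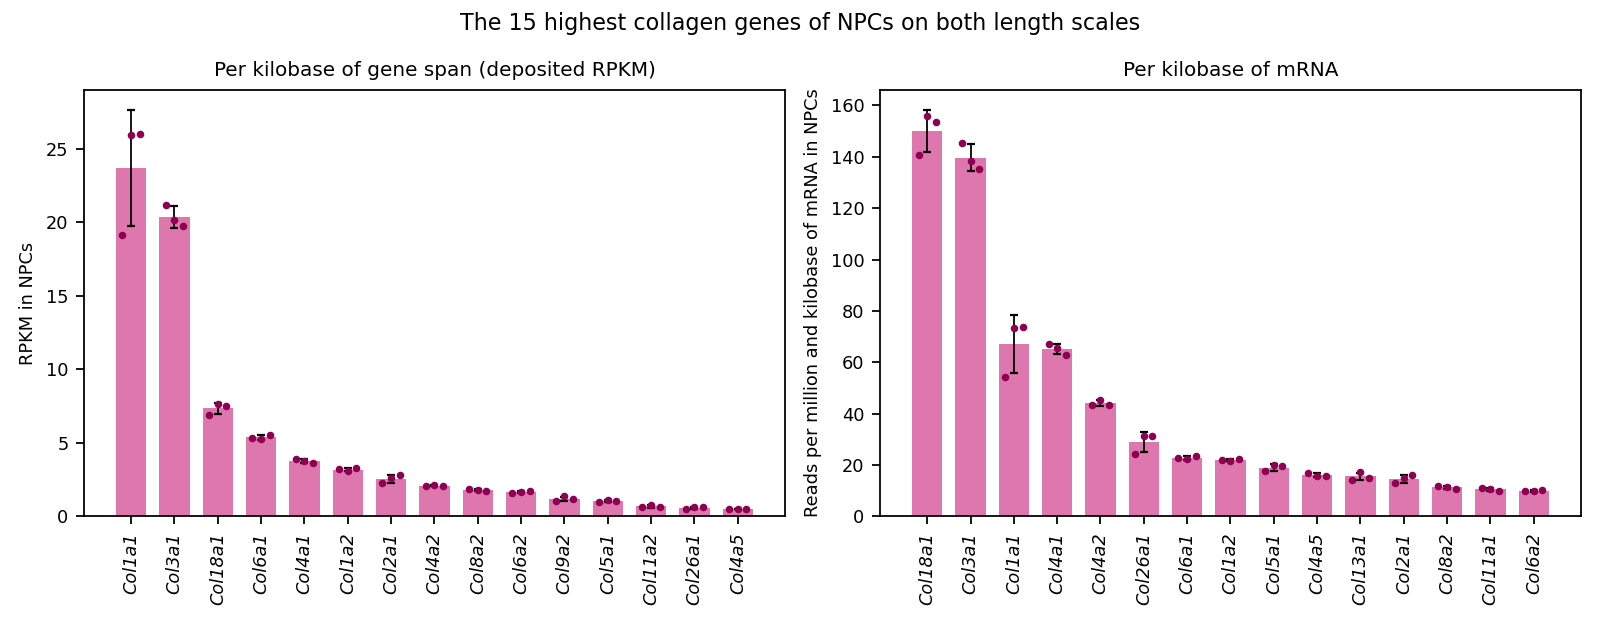
Levels of the 15 highest collagen genes of NPCs in RPKM per kilobase of gene span (left) and in RPM per kilobase of mRNA (right); bars are means of 3 NPC samples, error bars are SD and points are samples. Col1a1 leads on the left with 23.7 RPKM, and Col18a1 and Col3a1 lead on the right with 150.0 and 140 RPM per kilobase.

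Collagen chains need a set of enzymes and chaperones, and 67 genes in 5 lists around collagen were examined in the same fit. Of the 39 that passed the RPKM filter, 24 were called higher in NPCs (61.5%, all genes 37.0%) and 7 lower (17.9%, all genes 33.3%). Without ESC replicate 3 these counts were 26 and 12. Over all 7831 genes tested, that fit called 3437 higher and 3445 lower, against 2894 and 2604 with all samples. On whole reads, 40 of 63 were higher (63.5%, all genes 41.7%) and 9 lower (14.3%, all genes 23.9%). Of the 24 called higher on RPKM, 16 were under 1 RPKM in every ESC sample and passed the filter through NPCs only, among them P3h4, Fkbp10, Lox, Loxl2, Bmp1, Mrc2, Ddr1, Mmp2 and Timp2. A call of lower was hardly open to these 16, so the RPKM shares are largely set by the filter, and the other 23 genes were called higher for 8 and lower for 7.

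For folding and modification, 9 of 15 genes were higher and 3 lower, with a median log2 fold change of 0.59, and on whole reads 12 of 18 were higher and 3 lower. Serpinh1, the chaperone that binds the folded collagen helix, was at 10.0, 10.6 and 10.1 RPKM in ESCs and 85.2, 92.3 and 94.7 in NPCs. P3h4, part of a lysine hydroxylation complex for collagen, rose from 0.569 ± 0.0474 to 9.83 ± 0.0356 RPKM, and the collagen chaperone Fkbp10 from 0.324 ± 0.0846 to 7.56 ± 0.104 (SD, n = 3 each). Crtap, Colgalt1 and Ppib were the 3 called lower. Crtap, of the prolyl 3-hydroxylation complex, fell from 7.78 ± 1.62 to 2.90 ± 0.102 RPKM (SD, n = 3 each), the galactosyltransferase Colgalt1 from 14.8 ± 2.88 to 9.83 ± 0.258, and the prolyl isomerase Ppib from 11.6 ± 0.918 to 8.58 ± 0.634. The last 2 were called at adjusted p = 0.0180 and 0.0114, and neither passed the threshold under either other scaling (adjusted p = 0.619 and 0.975 with the same sum per sample). Colgalt1 also lost its call when any 1 sample other than ESC replicate 3 was left out (limma adjusted p from 0.0548 to 0.0645). Crtap thus fell while the collagen genes rose.

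In processing and cross-linking, 4 of 5 tested genes were higher and 1 lower, and on whole reads 8 of 11 were higher and 3 lower. Lox, which cross-links collagen and elastin, was listed at 0 in every ESC sample and at 6.78, 7.08 and 7.91 RPKM in NPCs. Its relative Loxl2 was at 0.00793 ± 0.00392 RPKM in ESCs and 2.24 ± 0.0894 in NPCs, and Bmp1, which removes the C-terminal propeptide of fibrillar chains, at 0.0142 ± 0.00170 and 2.26 ± 0.201 (SD, n = 3 each). Pcolce, an enhancer of Bmp1, fell from 26.9 ± 5.53 to 13.6 ± 0.962 RPKM (SD, n = 3 each).

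Of 10 collagen receptors, 7 were higher and 1 lower on whole reads, and the 3 that passed the RPKM filter were higher. The uptake receptor Mrc2 went from 0.00478 ± 0.00261 to 2.71 ± 0.0700 RPKM, the receptor kinase Ddr1 from 0.804 ± 0.0997 to 5.42 ± 0.305, and Itgb1, the β chain of collagen-binding integrins, from 3.19 ± 0.444 to 9.93 ± 0.120 (SD, n = 3 each). In breakdown, 4 of 5 were higher and 1 lower, and on whole reads 6 of 9 were higher and 1 lower. The gelatinase Mmp2 was at 0.0551, 0.0885 and 0.0684 RPKM in ESCs and 11.1, 10.3 and 10.0 in NPCs. Mmp14, which activates it and cuts fibrillar collagen, rose from 2.79 ± 0.175 to 12.2 ± 0.383 RPKM and the inhibitor Timp2 from 0.00259 ± 0.00111 to 1.38 ± 0.141 (SD, n = 3 each). A further inhibitor, Timp1, fell, from 11.0, 11.1 and 24.1 RPKM in ESCs to 1.95, 1.95 and 1.71 in NPCs, with ESC replicate 3 far above the others.

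Of other basement membrane genes, 4 of 11 were higher (36.4%, all genes 37.0%) and 2 lower, with a median log2 fold change of -0.09. On whole reads 7 of 15 were higher (46.7%, all genes 41.7%) and 1 lower, with a median of 0.74, whereas without ESC replicate 3 these counts were 8 and 6. Over all 16777 genes, the latter fit called 7685 higher and 5188 lower, against 6995 and 4018 with all samples. The laminin chain Lamb1 rose from 1.48 ± 0.330 to 4.73 ± 0.104 RPKM, perlecan (Hspg2) from 4.41 ± 2.34 to 9.92 ± 1.10, and the collagen-binding protein Sparc from 11.4 ± 1.16 to 19.5 ± 0.439 (SD, n = 3 each). Lama1, a laminin chain of early embryos, fell from 2.03 ± 0.846 to 0.812 ± 0.0355 RPKM (SD, n = 3 each). The calls of Hspg2 (adjusted p = 0.0293) and Lama1 (adjusted p = 0.0236) were lost when single samples were left out. The list hinged on ESC replicate 3: Lamc1 was at 8.48, 8.73 and 2.06 RPKM in ESCs and 3.14, 2.97 and 3.05 in NPCs. Without that library Lamc1, Nid1, Nid2 and Lama5 were called lower and Agrn higher, genes named here after their values were seen.

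**Figure D3:**
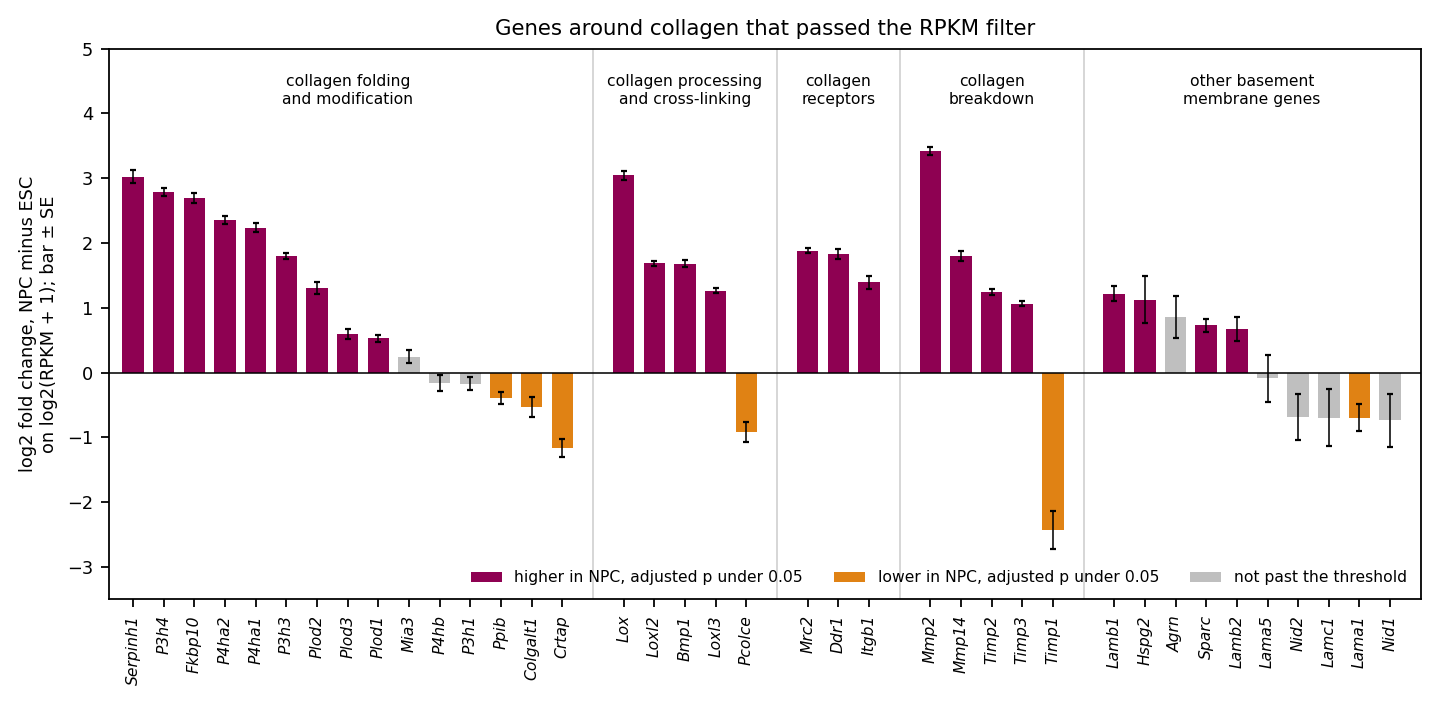
Log2 fold change (NPC minus ESC on log2(RPKM + 1), limma) of genes of 5 lists around collagen that passed the RPKM filter, with 1 of the 39 not drawn; error bars are SE, and colours mark 24 genes called higher, those called lower and 8 not past an adjusted p of 0.05. Serpinh1, Lox and Mmp2 have the tallest bars of their lists, and Timp1 the lowest bar of all.

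Markers of lineages other than neural progenitors differed in direction. All 12 mesenchyme and fibroblast markers were called higher on whole reads, with sums of 0.365, 0.401 and 0.260 RPKM in ESCs and 63.8, 78.1 and 74.9 in NPCs. The highest in RPKM was Foxc2 at 25.7, while Lum, Dcn and Twist2 stayed under 0.1 RPKM. In the sum of these markers, NPC replicate 1 was the lowest of its group. Markers of primitive, parietal and visceral endoderm, lineages known for type IV collagen, were called higher for 9 of 10 genes, with mean sums of 0.334 ± 0.0290 RPKM in ESCs and 21.6 ± 0.640 in NPCs (SD, n = 3 each). Gata6 led them at 6.69 RPKM, and Amn, Cubn and Afp stayed under 0.1 RPKM. Of 6 endothelium markers 4 were higher and 1 lower, with sums of 1.47, 1.42 and 1.06 RPKM in ESCs and 7.79, 7.47 and 7.10 in NPCs, led by Kdr.

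Of 8 cartilage and notochord markers 3 were higher and 3 lower. Their sums were 1.38, 1.42 and 1.36 RPKM in ESCs and 10.9, 11.9 and 11.3 in NPCs. In NPCs nearly all came from Sox9 at 10.4 RPKM, while Acan, Matn1, Matn4, Comp, T and Noto were under 0.1 RPKM and Noto was listed at 0. Shh, a signal of the notochord and floor plate, rose to 0.848, 0.889 and 0.762 RPKM in NPCs, and Matn4 was called higher as well. Neural crest markers summed to 10.5, 10.9 and 8.74 RPKM in ESCs and 3.40, 3.13 and 2.95 in NPCs, with 2 of 5 higher and 3 lower. Neuron markers summed to 12.9 ± 1.68 RPKM in ESCs and 7.97 ± 0.786 in NPCs, with 5 of 7 higher and 2 lower (SD, n = 3 each). The 2 lower genes carried the fall of the sum: Tubb3 went from a mean of 7.28 to 4.15 RPKM and Stmn2 from 5.28 to 0.306. Surface epithelium markers summed to 14.6 ± 2.88 RPKM in ESCs (SD, n = 3) and 5.09, 4.91 and 4.39 in NPCs, with 2 of 5 higher and 1 lower. Muscle markers summed to 2.59 ± 0.955 and 12.8 ± 3.77 RPKM, with 4 of 5 higher (SD, n = 3 each). Nearly all of both sums came from Myl7, with means of 2.52 and 12.1 RPKM. The part of any of these lineages in the levels of collagen genes was not tested.

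Collagen genes were next set against the NADs. In Nucleolar-DamID, DNA near the nucleolus is methylated by the bacterial enzyme Dam fused to histone H2B with a nucleolar signal, relative to the same fusion without the signal. The lists hold 1769 NADs for ESCs and 1447 for NPCs, each pooled from 2 experiments, so no value has a replicate error. At least 1 base of 10 of the 44 collagen genes (22.7%) lay in a NAD of ESCs, where 27.1% of 21432 genes did. In NPCs it was 13 of 44 (29.5%), where 21.6% of genes did. Of the collagen genes, 4 were in NADs of both cell types (14.5% of all genes), 6 in those of ESCs only (12.6% of all genes), 9 in those of NPCs only (7.12% of all genes) and 25 in neither (65.8% of all genes). A rule of 1 base favours long genes, and the median length was 114 kb for collagen genes and 17.4 kb for all genes with a position. Counts by transcription start are given below.

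The genes in NADs of ESCs only were Col3a1, Col5a2, Col9a1, Col9a2, Col22a1 and Col23a1. Col3a1 and Col5a2, which are neighbours 24.6 kb apart with their ends facing each other, lay wholly within the NAD chr1:45100124-45900109, and neither was in a NAD of NPCs. Col3a1 thus had its 0, 14 and 0 reads in the cell type whose NAD list covered it. Its 24386, 20987 and 24305 reads were in the cell type whose list did not. The deposited score of that NAD, 0.0217, was under the median score of the ESC list, and NADs were mapped in cells with the induced fusion proteins. For the other 4 genes the overlap was 100% of Col9a2, 30.3% of Col9a1, 3.30% of Col23a1 and 1.73% of Col22a1. All 6 were called higher in NPCs on whole reads, as were 32 of the 34 collagen genes in no NAD of ESCs.

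In NADs of NPCs only were Col1a2, Col4a1, Col4a2, Col4a4, Col4a5, Col4a6, Col8a1, Col11a1 and Col28a1. Col1a2 lay wholly within the NAD chr6:3499595-4800093 of NPCs and was in none of ESCs, while its mean RPM was 139 times higher in NPCs. Col4a1 was covered over 87.5% and Col4a2 over 35.8% of their length in NPCs, by NADs that left their common start free. Both were far above their ESC levels in these cells. In NADs of both cell types were Col4a3, Col10a1, Col12a1 and Col15a1, of which all but Col10a1 rose on whole reads. By transcription start, 7 collagen genes (15.9%, all genes 23.6%) were in NADs of ESCs and 9 (20.5%, all genes 18.9%) in those of NPCs.

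Neighbouring collagen genes did not always have like levels. Within 1 Mb of each other lie Col9a1 and Col19a1, Col3a1 and Col5a2, and Col4a3 and Col4a4 on chromosome 1, Col9a3 and Col20a1 on chromosome 2, Col4a1 and Col4a2 on chromosome 8, Col6a4, Col6a5 and Col6a6 on chromosome 9, Col6a1, Col6a2 and Col18a1 on chromosome 10, and Col4a5 and Col4a6 on chromosome X. Col9a1 and Col19a1 are 9.21 kb apart, and in NPCs the first had 221, 267 and 279 reads while Col19a1 had 0, 4 and 0. Col4a3 and Col4a4 start 71 bases apart and were both low, whereas Col4a1 and Col4a2, whose first exons overlap by 22 bases, were both high in NPCs. Exons of 13 collagen genes overlap exons of another annotated gene, among them Col9a3 with Tcfl5 over 234 bases and Col10a1 with Nt5dc1 over 18 bases, on opposite strands. The labels name a library kit that does not keep the strand and the methods of the study one that does, and use of the strand in counting is not given. Reads of such stretches therefore cannot be told apart.

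Promoter windows of 35 of the 44 collagen genes were found in the RefSeq table of build GRCm38.p6, and the 250 bases before each start were searched for 3 motifs on both strands. GGGCGG, the core of a GC box, was in 21 of 35 (60.0%), compared with 35.4% of all 27025 genes of the table. CCAAT was in 13 of 35 (37.1%, all genes 37.5%) and TATAAA in 5 of 35 (14.3%, all genes 14.3%). Col3a1 is shown because its start lies in a NAD of ESCs and not of NPCs, with Col6a2 and Col5a1 as further genes of at least 1 RPKM in NPCs whose window overlaps no annotated exon. The windows are chr1:45311288-45311537 on the plus strand, chr10:76623631-76623880 on the minus strand and chr2:27886175-27886424 on the plus strand, and capitals mark TATAAA in the first window and in the others GGGCGG or the reverse complement of it.
Col3a1: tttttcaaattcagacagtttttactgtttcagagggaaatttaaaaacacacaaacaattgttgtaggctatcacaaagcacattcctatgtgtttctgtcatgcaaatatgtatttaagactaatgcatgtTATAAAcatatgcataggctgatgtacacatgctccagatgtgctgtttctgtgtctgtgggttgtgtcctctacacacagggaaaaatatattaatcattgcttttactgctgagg
Col6a2: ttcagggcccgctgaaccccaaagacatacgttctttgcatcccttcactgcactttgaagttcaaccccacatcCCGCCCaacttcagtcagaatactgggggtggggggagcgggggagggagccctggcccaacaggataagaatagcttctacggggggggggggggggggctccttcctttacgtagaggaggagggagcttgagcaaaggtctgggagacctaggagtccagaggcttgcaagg
Col5a1: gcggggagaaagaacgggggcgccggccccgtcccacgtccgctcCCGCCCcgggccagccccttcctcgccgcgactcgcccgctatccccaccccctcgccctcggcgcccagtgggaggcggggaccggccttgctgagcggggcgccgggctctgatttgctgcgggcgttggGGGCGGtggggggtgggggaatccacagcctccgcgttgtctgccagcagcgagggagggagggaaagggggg
The match in Col3a1 begins 117 bases before the annotated start. Those of Col5a1 begin 205 and 73 bases before it, and that of Col6a2 175 bases before it. A match describes the letters only and says nothing of binding.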

How the data were processed

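RNAseq of 3 ESC and 3 NPC samples and the NAD lists of both cell types were used. Per the methods of the study, reads were filtered with SortMeRNA, trimmed with Trimmomatic and aligned to mm10 with STAR, and the authors deposited RPKM per gene from the coverage of exons. The authors deposited 1 NAD list per cell type with a score, from the damidseq pipeline and find_peaks, keeping domains common to both experiments. The score only served to split each list at its median. The annotation, the strand setting and the treatment of reads with several matches are not stated.

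The 22064 lines of the tables were averaged by symbol, since 153 symbols occur on more than 1 line. Positions came from GENCODE M21 on GRCm38 for 21627 symbols. R 4.3.3 with limma 3.58.1 served for all tests of expression. A linear model with a moderated, mean-dependent variance was fitted to log2(RPKM + 1) of the 7831 genes with at least 1 RPKM in at least 3 samples, with Benjamini-Hochberg adjustment over all of them; a gene was called at an adjusted p under 0.05. Fold changes on this scale understate those of low genes. Whole reads were recovered as RPKM times gene length and depth and tested as log2(RPM + 0.1) over 16777 genes; this fit, the same without ESC replicate 3, with the replicate number as block or with voom weights, and one per kilobase of mRNA of the longest protein-coding transcript were chosen after seeing the data. The fits were tested on simulated data. Counting intervals are exact and, like the floor of 3 reads over a group, cover counting error only. Tables were handled in Python 3.11.15 (pandas 2.3.3, numpy 2.4.6, and scipy 1.17.1 for intervals), and matplotlib 3.10.9 drew the figures.

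Named genes are the collagen genes with a mean of at least 1 RPKM in either cell type, the highest or lowest of each class, those in NADs or next to each other, and in each of the 5 other lists up to 3 called genes that rose most and up to 3 that fell most; others were named after their values were seen. The collagen genes and all lists were chosen with earlier results of these data known. Protein sequences were not used here.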

Additional observations from a re-analysis of the deposited data

How the results depend on the processing

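The 11 collagen genes that passed the RPKM filter were called higher in NPCs under each alternative that tested them: 217 values over pseudocounts, filters, scalings, samples left out, the replicate block and whole reads. Since each of the 11 passed that filter through NPCs only, these values are no independent support. The number of collagen genes called higher changed with the number tested. It was 39 of 44 with no filter, 25 of 25 with a mean of at least 0.1 RPKM, 41 of 44 with whole reads, also with the replicate block and with voom weights, 40 of 44 with whole reads without ESC replicate 3, and 30 of 30 per kilobase of mRNA. It stayed at 11 whichever sample was left out. The replicate numbers did not pair the samples (correlations of deviations 0.114, -0.0829 and 0.0321 for numbers 1, 2 and 3), and with the replicate block 11 of 11 were called on RPKM.

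Genes of the 5 other lists called higher numbered 24, and 42 with no filter, 40 with whole reads or voom weights, 41 with whole reads and the replicate block and 42 with whole reads without ESC replicate 3. Those called lower numbered 7, and 4 with the same sum per sample, from 5 to 12 with a sample left out, the 12 without ESC replicate 3, and 15 with whole reads without it. Of 428 values of the 22 named genes of these lists, 19 no longer passed the threshold, all of Colgalt1, Ppib, Hspg2 and Lama1, and 0 reversed. The mean summed collagen RPKM of NPCs, 79.6, was 93.8 with the same sum per sample and 85.8 with median-of-ratios scaling. Collagen genes in NADs of ESCs numbered 10, and 5 with at least 50% of the gene covered (all genes 24.5%) and 4 when NADs of a score under the median were left out (all genes 16.5%). Those in NADs of NPCs numbered 13, and 9 with at least 50% of the gene covered (20.5%, all genes 19.5%). They numbered 6 when NADs of a score under the median were left out (all genes 12.3%). The causes of these changes were not tested, except that fewer or more genes enter under another filter.

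Chain ratios were not tested, since no pair had 0.5 RPKM in both chains and both cell types, and their alternatives were not run. Over all genes tested, 2894 were called higher and 2604 lower on RPKM, and 3437 and 3445 without ESC replicate 3. With no filter these counts were 7245 and 4209, and with a mean of at least 0.1 RPKM 5082 and 3650. Whole reads gave 6995 and 4018, and 7685 and 5188 without ESC replicate 3. With the same sum per sample the counts on RPKM were 3659 and 1611. Col19a1, Col28a1 and Col10a1, which were not called on whole reads, had at most 8 reads in either cell type summed over samples. Whether depth limited their calls was not tested.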

Other observations

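Some genes around collagen that were too low for the RPKM filter moved strongly on whole reads. The prolyl hydroxylases P4ha3 and P3h2 were at 0.138, 0.124 and 0.134 and at 0.0541, 0.0613 and 0.0843 RPKM in NPCs, and each had a value above 0 in only 1 ESC sample (log2 fold changes 5.40 and 6.47, limma adjusted p = 5.35e-07 and 6.43e-07). Of the procollagen N-proteinases, Adamts2 and Adamts3 were called higher (log2 fold changes 4.07 and 5.55) and Adamts14 lower (-1.81, adjusted p = 0.000762). Pcolce2 was at 0.837, 0.869 and 1.08 RPKM in ESCs and 0.0115, 0.0127 and 0.0148 in NPCs, so it was higher in every ESC sample. The laminin chains Lama2 and Lama4, absent from the RPKM fit, were called higher (log2 fold changes 8.06 and 6.53). These genes were chosen after their values were seen.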
